A study of Mus musculus with 24 samples.

Results

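Chromatin that was called accessible on day 2 (D2) of cardiac differentiation was set against chromatin called on day 1 (D1), region by region. The members were all regions covered by the D2 or the D1 peak list, chosen with no cut on how they differed. Overlapping intervals of the 2 lists were merged, and a region was shared if both lists had an interval in it with at least 1 bp of overlap, D2-only if it had a D2 interval alone and D1-only if it had a D1 interval alone. This gave 41632 regions, of 128693 when the lists of all time points of the series were merged. Of the 41632 regions, 14594 were D2-only (35.1%), 8697 were D1-only (20.9%) and 18341 were shared (44.1%).

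The study profiled A2lox.cre mouse embryonic stem cells, an established line, by ATAC-seq, in which the Tn5 transposase inserts sequencing adapters into exposed DNA. Libraries were collected in 2 biological replicates per time point, 12 time points in all, the earliest being the 2i stage, a culture that holds the cells in naive pluripotency, and the latest D15. The D2 group and the D1 group were the samples at day 2 and at day 1 of the same differentiation, and the labels call the cells of both days an intermediate of cardiac differentiation. No genotype, dose or treatment separates the 2 days in the labels. The labels name 1 peak list for both replicates of a day, so no value here has a replicate spread, and differences between D2 and D1 were described and not tested. A region outside a list is one that was not called there, which does not show that it was closed. Wilson 95% intervals are given for shares and cover counting error only.

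As background, mouse embryonic stem cells that leave naive pluripotency pass through a formative, epiblast-like state before they are directed to the germ layers. In the embryo, Wnt, Nodal and BMP signals then form the primitive streak, where the T-box factors T and Eomes act, and the first cardiac progenitors arise from mesoderm that has expressed Mesp1. Distal enhancers tend to be replaced along this course, while promoters rich in CpG tend to be accessible in most cell types.

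Promoters of developmental regulators were among the places where the 2 lists differed, so the sequences of 6, chosen after their classes were seen, are shown. Each is a window of 250 bases before to 50 bases after an annotated start, from RefSeq on GRCm38.p6 (the assembly named mm10), and capitals mark any match to the 12 short motifs that were searched on both strands. The windows of T (chr17:8434173-8434472, plus strand), Gsc (chr12:104473187-104473486, minus strand), Nodal (chr10:61417722-61418021, plus strand), Evx1 (chr6:52313248-52313547, plus strand) and Nkx2-5 (chr17:26841516-26841815, minus strand) lay under D2-only regions. The window of Nr5a2 (chr1:136953581-136953880, minus strand) was the sole window of a listed gene under a D1-only region.
T: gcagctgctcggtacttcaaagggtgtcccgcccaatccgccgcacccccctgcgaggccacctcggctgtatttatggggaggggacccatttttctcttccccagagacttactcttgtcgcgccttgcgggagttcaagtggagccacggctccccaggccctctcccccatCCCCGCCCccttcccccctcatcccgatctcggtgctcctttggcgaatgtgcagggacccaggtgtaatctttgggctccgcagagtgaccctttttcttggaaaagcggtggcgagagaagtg
Gsc: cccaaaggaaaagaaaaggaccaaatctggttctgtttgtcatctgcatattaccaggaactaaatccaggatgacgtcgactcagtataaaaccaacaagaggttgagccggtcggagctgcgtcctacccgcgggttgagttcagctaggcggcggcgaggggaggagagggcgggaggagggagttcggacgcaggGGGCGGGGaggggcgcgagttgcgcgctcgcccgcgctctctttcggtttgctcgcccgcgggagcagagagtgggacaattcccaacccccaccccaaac
Nodal: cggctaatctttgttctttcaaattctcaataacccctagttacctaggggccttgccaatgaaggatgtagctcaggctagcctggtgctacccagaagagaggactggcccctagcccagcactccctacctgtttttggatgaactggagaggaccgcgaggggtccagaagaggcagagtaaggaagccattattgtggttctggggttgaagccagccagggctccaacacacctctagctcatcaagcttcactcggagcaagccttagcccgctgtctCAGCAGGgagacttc
Evx1: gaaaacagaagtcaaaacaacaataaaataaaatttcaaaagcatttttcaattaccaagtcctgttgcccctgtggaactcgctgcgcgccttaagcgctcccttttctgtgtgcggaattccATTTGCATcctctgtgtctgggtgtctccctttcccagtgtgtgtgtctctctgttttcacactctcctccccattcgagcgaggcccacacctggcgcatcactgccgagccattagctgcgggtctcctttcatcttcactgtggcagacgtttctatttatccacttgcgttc
Nkx2-5: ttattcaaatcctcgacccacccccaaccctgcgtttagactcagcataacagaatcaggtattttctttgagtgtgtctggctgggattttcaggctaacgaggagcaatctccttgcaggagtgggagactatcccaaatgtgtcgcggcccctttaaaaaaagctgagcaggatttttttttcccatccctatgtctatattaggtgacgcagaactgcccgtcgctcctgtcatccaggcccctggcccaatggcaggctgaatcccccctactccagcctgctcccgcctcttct
Nr5a2: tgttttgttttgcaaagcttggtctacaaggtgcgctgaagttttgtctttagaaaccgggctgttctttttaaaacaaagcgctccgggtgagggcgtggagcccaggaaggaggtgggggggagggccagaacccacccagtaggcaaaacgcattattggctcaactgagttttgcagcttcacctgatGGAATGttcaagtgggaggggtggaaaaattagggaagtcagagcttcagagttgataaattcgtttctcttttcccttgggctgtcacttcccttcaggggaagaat

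T, the primitive streak factor also known as Brachyury, had a D2 region of 839 bp with a −log10 q of 8.07 and a fold enrichment of 5.102 that covered all 300 bases of its window. Gsc, a homeobox factor of the anterior streak, had a D2 region of 577 bp over 95 bases of its window, with a −log10 q of 9.74. Nodal, a TGF-beta family ligand that patterns the streak, had a D2 region of 592 bp over 70 bases, with a −log10 q of 7.35. The 5 D2-only windows were thus reached to different extents, and those of Nkx2-5 (24 bases) and Evx1 (86 bases) only at an edge. Evx1, a homeobox factor of the posterior streak, and Nkx2-5, a homeobox factor of cardiac progenitors, had D2 values near the threshold of the list, at −log10 q of 2.39 and 2.496. Nr5a2, a nuclear receptor of naive pluripotent cells, had a D1 region of 452 bp over 236 bases with a −log10 q of 1.95, and no other of the 12 lists called it. Some of the other windows had been called before D2: the region over the T window was also called at D0 and from D3 to D8, that of Gsc in every list but D1, and that of Nodal also at the 2i stage. Those of Evx1 and Nkx2-5 were called at neither 2i nor D0 and were called again at D3 and D5 to D8.

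The motif marked in the windows of T and Gsc is GGGCGGGG (KLF/SP), which 23.8% of all 21045 promoter windows used also hold. The one in the Nodal window is CAGCAGG (ZIC, 10.6% of windows), the one in Evx1 is ATTTGCAT (the OCT octamer, 1.68%) and the one in Nr5a2 is GGAATG (TEAD, 13.5%). The Nkx2-5 window held none of the 12, and no 2 matches overlapped in these windows. The other motifs searched were TCAAGGTCA for ESRRB (0.337% of all windows), TGAGTCA for AP-1 (4.69%), AGATAA for zinc fingers of the GATA family (9.68%) and TCACACCT for T-box factors (1.16%). CTTTGAT for TCF/LEF (3.25%), TAATCC for OTX2/GSC (6.39%), TGACGTCA for CRE (2.26%) and CACGTG for E-box factors (7.91%) completed the 12. A match is a run of letters and not a measured binding site.

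The sizes of the classes depended on how many peaks each list was allowed. The D2 list held 39328 peaks in 33009 distinct intervals and the D1 list 31324 peaks in 27137 intervals. Of the D2 intervals, 55.8% (55.3 to 56.3%) overlapped a D1 interval, and of the D1 intervals, 68.0% (67.4 to 68.5%) overlapped a D2 interval. With all peaks there were 5897 more D2-only than D1-only regions. When the D2 list was shortened to its 31324 peaks with the smallest p-values, the order turned round, with 8852 D2-only, 10018 D1-only and 17022 shared regions. When both lists were limited by a −log10 q of at least 5, 9074 regions were D2-only, 3707 D1-only and 12710 shared. Which day had more regions of its own is therefore not settled by the lists, and the counts of D2-only and D1-only regions given for genes and promoters carry the same dependence.

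**Figure D1:**
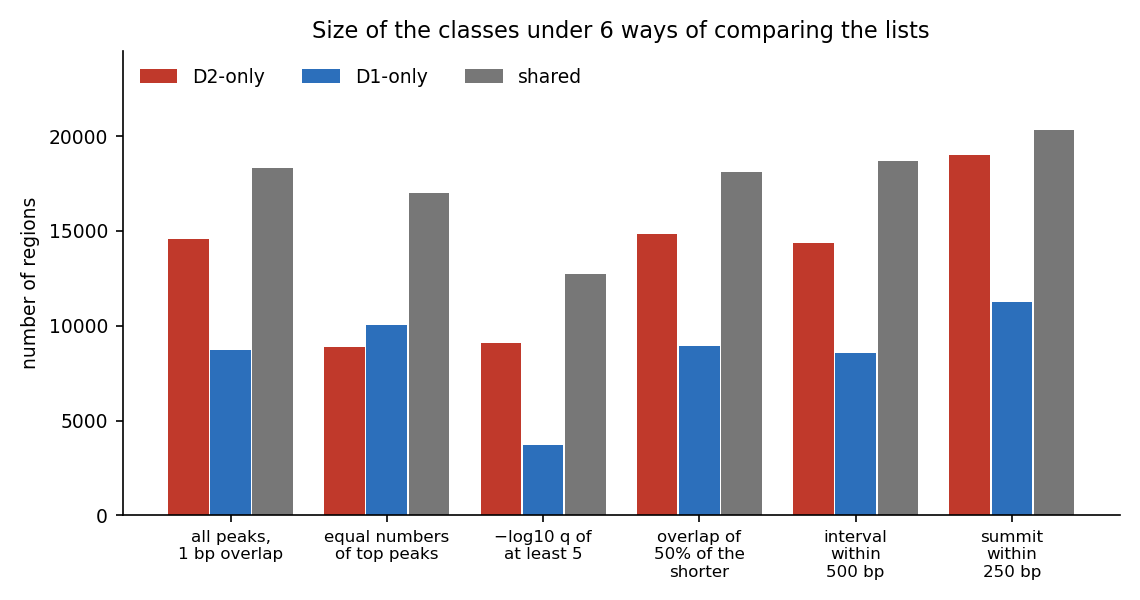
Number of D2-only (red), D1-only (blue) and shared (grey) regions on the vertical axis under 6 ways of comparing the D2 and D1 peak lists. With all peaks D2-only regions outnumbered D1-only regions by 14594 to 8697, and with equal numbers of top peaks they were fewer, 8852 against 10018.

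Regions of 1 day were narrow and weakly enriched beside the shared ones. The median width was 390 bp (quartiles 293 to 532 bp) for D2-only and 384 bp (311 to 492 bp) for D1-only regions, against 812 bp (626 to 1022 bp) for shared regions. A shared region spans the union of its D2 and D1 intervals, so part of its greater width comes from the merging. Over all distinct intervals the median width was 555 bp in the D2 list and 536 bp in the D1 list. Within the D2 list, D2-only regions had a median −log10 q of 4.29 and a median fold enrichment of 4.20, against 18.0 and 7.44 for shared regions. Within the D1 list, D1-only regions had 3.82 and 4.12, against 9.55 and 5.98 for shared regions. The q-values and fold enrichments are the authors' own per peak and are compared only within a list. For a fold enrichment of 4.9 to 5.1, the median −log10 p was 8.65 in the D2 list and 9.14 in the D1 list. Whether the power to call a peak differed between the days was not tested.

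The lists of the other 10 time points did not enter the definition of the classes and show when else the regions were called. D2-only regions were mostly found again on the next day: 65.4% (64.6 to 66.2%) were called at D3, against 10.7% (10.1 to 11.4%) of D1-only regions and 88.3% of shared regions. Looking back, 27.6% (26.8 to 28.3%) of D2-only regions were called at D0, against 50.8% (49.7 to 51.8%) of D1-only regions. At the 2i stage the shares were 33.6% of D2-only and 46.8% of D1-only regions. Later in the course the D7 list called 55.2% of D2-only regions, the D8 list 46.9% and the D15 list 22.5%. For D1-only regions the share was 19.5% in the D4 list, 3.08% in the D6 list, 11.4% in the D7 list and 3.66% in the D15 list. The shares did not follow the time order throughout: the 2i list called more of the D2-only regions than the D0 list, 33.6% against 27.6%. The D7 list likewise called more of them than the D6 list, 55.2% against 34.5%, and the lists differ in length.

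**Figure D2:**
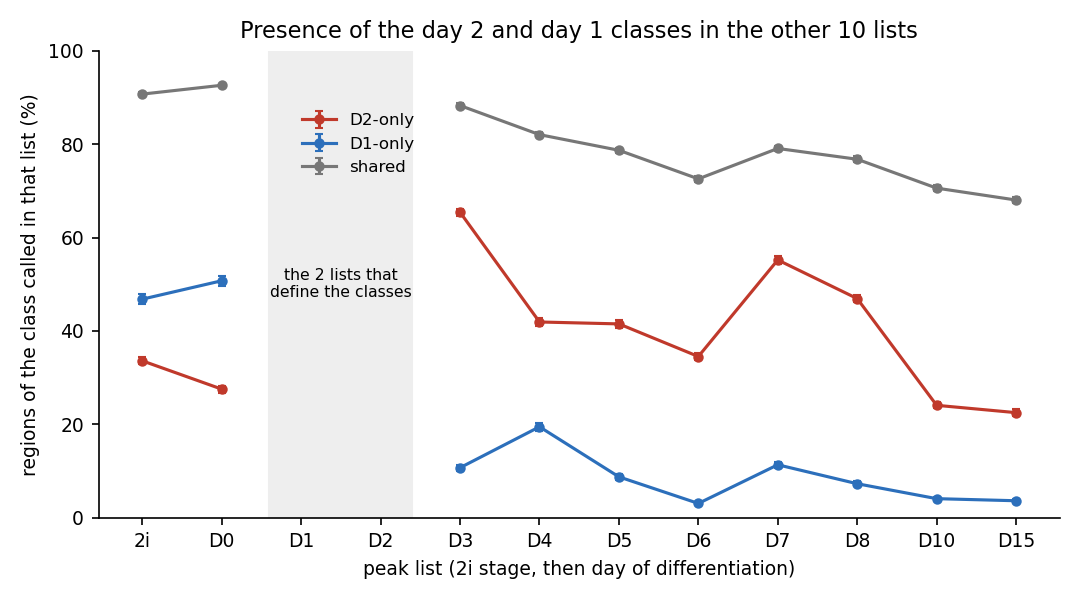
Percentage of D2-only (red), D1-only (blue) and shared (grey) regions called in each of the 10 other peak lists, in order of time, with Wilson 95% intervals as bars. The red line peaks next to D2, at 65.4% at D3, and the blue line next to D1, at 50.8% at D0.

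Taking D0 and D3 together, 44.1% of D2-only regions (6432) were called at D3 and not at D0, 21.4% (3116) at both, 6.19% at D0 alone of the pair and 28.4% at neither. Of D1-only regions, 42.8% (3726) were called at D0 and not at D3, 7.92% at both, 2.81% at D3 alone and 46.4% at neither. The 3116 D2-only regions that were called at D0 and D3 are a class that the D1 list alone interrupts, and 32.9% (31.3 to 34.6%) of them lay within 1 kb of a gene end, against 17.6% of all D2-only regions. A further 12.7% (12.2 to 13.3%) of D2-only and 29.0% (28.1 to 30.0%) of D1-only regions were called in none of the other 10 lists, against 0.769% of shared regions.

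Recurrence rose with the strength of the call. Among D2-only regions, 38.7% of those with a −log10 q under 2.5 were called at D3, 58.5% from 2.5 to 5, 80.6% from 5 to 10, 95.6% from 10 to 20 and 99.6% (265 of 266) at 20 or more. Among D1-only regions, the shares called at D0 over the same ranges were 28.8%, 45.5%, 72.0%, 88.0% and 97.0% (32 of 33). On the far side of the pair the shares rose as well. From the weakest to the strongest range, D2-only regions called at D0 went from 15.0% to 63.9%. D1-only regions called at D3 went from 6.46% to 30.3%. The weakest calls of both days were therefore the ones least often found again.

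The place of the regions relative to genes set the classes apart. D1-only regions lay far from genes: 48.3% (47.3 to 49.3%) were over 50 kb from any protein-coding gene body, against 14.3% (13.7 to 14.9%) of D2-only and 12.8% (12.3 to 13.2%) of shared regions. Within 1 kb of an annotated gene end were 17.6% (17.0 to 18.2%) of D2-only, 2.38% (2.08 to 2.72%) of D1-only and 52.5% (51.7 to 53.2%) of shared regions. Summits inside a gene body made up 54.3% of D2-only, 29.2% of D1-only and 59.4% of shared regions. The median distance to the nearest gene end was 12.3 kb for D2-only, 93.5 kb for D1-only and 0.708 kb for shared regions. Gene ends of either side were used because the gene table gives no strand.

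**Figure D3:**
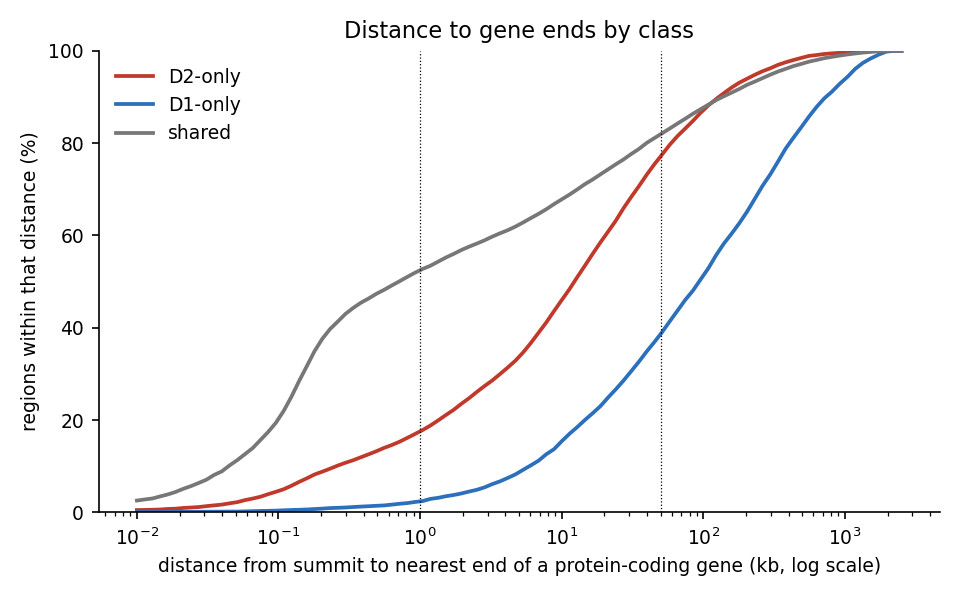
Cumulative percentage of D2-only (red), D1-only (blue) and shared (grey) regions by the distance from their summit to the nearest end of a protein-coding gene, in kb on a log scale, with dotted lines at 1 and 50 kb. The D1-only curve runs below the others throughout, with medians of 12.3 kb for D2-only, 93.5 kb for D1-only and 0.708 kb for shared regions.

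The difference in place held with equal numbers of top peaks, where 13.6% of D2-only and 46.1% of D1-only regions were over 50 kb from a gene, and at a −log10 q of at least 5, where the shares were 12.3% and 46.1%. Over the 5 ranges of −log10 q above, the share that far from genes was 9.80% to 16.8% for D2-only regions and 39.4% to 50.8% for D1-only regions. D1-only regions far from genes were called at D0 in 46.1% of cases and at D3 in 5.12%, while D2-only regions within 1 kb of a gene end were called at D0 in 42.4% and at D3 in 86.1%. For the adjoining pairs of days, which share a list with this one, the regions of D1 that D0 lacked were 46.4% over 50 kb from genes by their centre, against 27.6% of those of D0 that D1 lacked. Of the regions of D3 that D2 lacked, 15.1% were that far away, against 28.8% of those of D2 that D3 lacked. Over whole lists, 13.4% of D2 intervals and 24.1% of D1 intervals were that far from genes. The D1 value was not the highest of the series. In the other lists the share ran from 9.13% at D6 to 26.7% at D4, with 21.9% at D0 and 19.8% at the 2i stage. Whether a property of the D1 libraries moves with this was not tested.

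With all peaks, more promoter windows lay under D2-only than under D1-only regions. Of the 21045 promoter windows used, 8.95% (1884 windows of 1693 genes) lay under D2-only regions and 0.385% (81 windows of 77 genes) under D1-only regions, while 10489 lay under shared regions and 8594 under none. The promoters differed in base composition: the median number of CpG pairs per 300 bases was 16.0 (quartiles 10.0 to 23.0) under D2-only, 8.0 (5.0 to 13.0) under D1-only and 23.0 (16.0 to 31.0) under shared regions, against 13.0 over all windows and 3.0 under no region. Median GC content was 60.3% under D2-only, 53.3% under D1-only and 63.0% under shared regions. Of the motifs searched, GGGCGGGG (KLF/SP) was in 27.9% of windows under D2-only, 19.8% under D1-only and 38.6% under shared regions. CAGCAGG (ZIC) was in 14.6% under D2-only, 11.1% under D1-only and 9.49% under shared regions, against 10.6% of all windows. TGAGTCA (AP-1) was in 4.94% under D2-only, 7.41% (6 of 81) under D1-only and 2.39% under shared regions, against 4.69% of all windows. TAATCC (OTX2/GSC) was in 5.15% under D2-only and 6.17% under D1-only regions, against 6.39% of all windows.

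Regions were assigned to the protein-coding gene whose body held the summit, or to the nearest one within 50 kb, and described for 15 groups of genes. Over all 21631 genes, 35% (7573) had at least 1 D2-only region and 13.5% (2915) at least 1 D1-only region. Of the 33007 regions assigned to a gene, 37.9% were D2-only and 13.6% D1-only. Long genes collect more regions: genes with a D2-only region had a median length of 28.8 kb and those with a D1-only region 44.6 kb, against 17.3 kb for all. The genes with most D2-only regions were Zfp423, Msi2 and Tenm4 with 12 each and Casz1 and Cacna1a with 11 each. Those with most D1-only regions were Macrod2 with 20, Marchf1 with 17 and Negr1, Ptprd, Ccser1, Gpc5 and Sgcz with 14 each, and these 7 genes span 755 kb to 2271 kb.

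**Figure D4:**
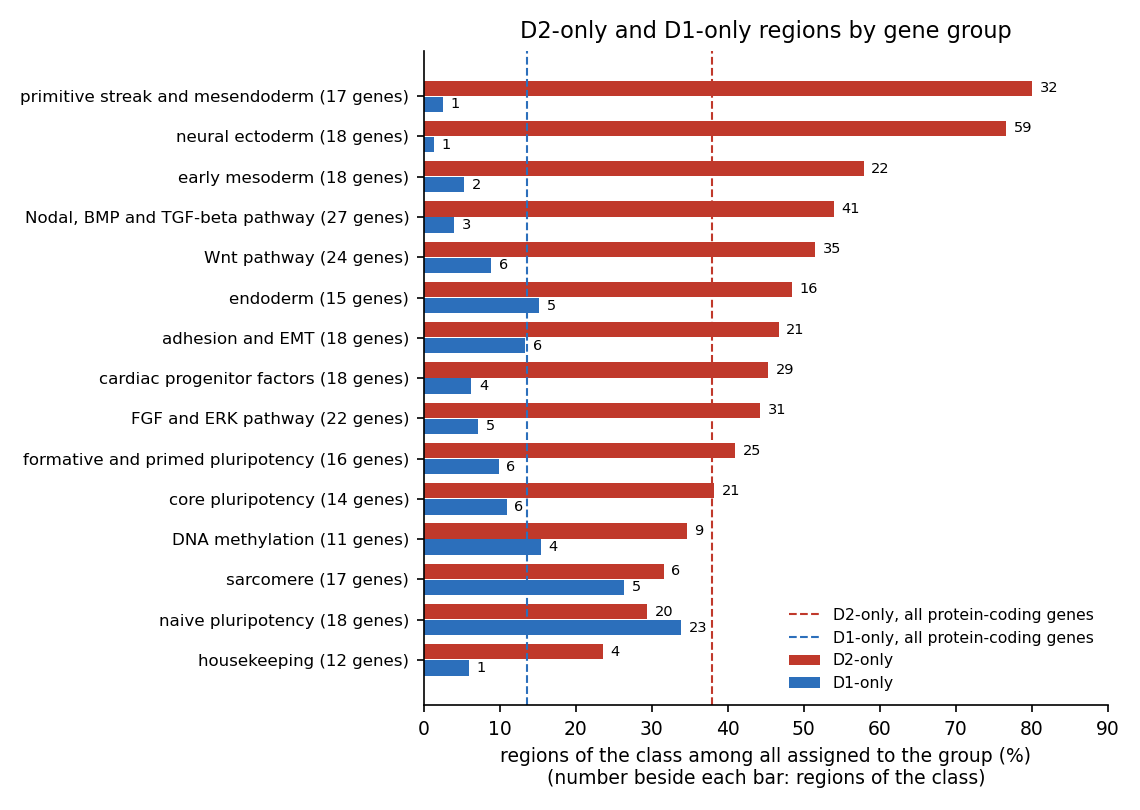
Percentage of the regions assigned to each of 15 gene groups that were D2-only (red, upper bar) or D1-only (blue, lower bar), with the number of regions beside each bar and dashed lines at the shares over all protein-coding genes (37.9% and 13.6%). Primitive streak and neural ectoderm genes had the highest D2-only shares, 80.0% and 76.6%, and naive pluripotency genes the highest D1-only share, 33.8%.

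Primitive streak and mesendoderm genes had 32 D2-only regions, 1 D1-only and 7 shared. A D2-only region occurred at 14 of the 17 genes, against 35% of all genes. Of the 32 D2-only regions, 27 were called again at D3, 9 at D0 and 13 lay within 1 kb of a gene end. Over all D2-only regions these shares were 65.4%, 27.6% and 17.6%. Cdx2, a caudal homeobox factor of posterior tissue and trophectoderm, had 4 D2-only regions with −log10 q of 15.8, 10.3, 9.81 and 3.42, and all 4 were also called at the 2i stage and from D3 to D7. Wnt3, the ligand that starts streak formation, had 3, one of them over its promoter at a −log10 q of 5.33 and called at D0 and from D2 to D8. Lhx1, a LIM homeobox factor of the streak, had 3 D2-only regions and no shared region. Eomes had 1 D2-only region 2.19 kb from the gene, at a −log10 q of 9.85, and 1 shared region. T itself had 1 assigned D2-only region 13.4 kb away, called at D2 alone, since the summit of the region over its promoter falls in a predicted gene that overlaps the T start and was counted there. Mixl1, a homeobox factor of the streak, had 1 shared region and neither kind of single-day region. Fst, the activin antagonist follistatin, had the sole D1-only region, 29.2 kb away at a −log10 q of 4.96 and called otherwise at D4. The promoters of 8 of the 13 genes in the promoter table lay under D2-only regions, those of Cdx2, Evx1, Gsc, Lhx1, Nodal, T, Wnt3 and Wnt3a, and 1, that of Foxa2, under a shared region, against 8.95% of all windows under D2-only regions.

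Early mesoderm genes had 22 D2-only, 2 D1-only and 14 shared regions, 57.9% D2-only, against 37.9% over all genes. Mesp1, the bHLH factor of cardiac mesoderm, had 2 D2-only regions and no other, one of 878 bp 0.312 kb inside the gene at a −log10 q of 5.83 that was also called at the 2i stage and from D3 to D10 except at D4. Foxc1, a forkhead factor of paraxial mesoderm, had 3 D2-only regions with −log10 q of 6.32, 5.00 and 1.82. Tcf21, a bHLH factor known from the epicardium, had 3 with −log10 q of at most 3.93. Kdr, the VEGF receptor of early mesoderm, had 1 D2-only region at 4.74, called in no other list, 1 D1-only region at 3.35 and 1 shared region. Aplnr, the apelin receptor, had 1 D2-only region at 1.65 and 1 D1-only region at 3.15 inside the gene that was called at D1 alone.

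Cardiac progenitor factors had 29 D2-only, 4 D1-only and 31 shared regions, 45.3% D2-only, against 37.9% over all genes. Meis2, a TALE homeobox factor, had 6 D2-only regions, the strongest with a −log10 q of 17.5 and called in every list but D1. Nkx2-5 had 3, with −log10 q of 6.67, 4.74 and 2.496, all called at D3 and from D6 to D8. Gata6, a zinc finger factor of endoderm and heart, had 1 shared region and no other. Mef2c, a MADS-box factor of muscle, had 1 D2-only region at 4.74 and 2 D1-only regions at 6.71 and 2.79. Meis1, a relative of Meis2, had 3 D2-only regions and 1 D1-only region at 10.1 that was called in every list but D2 and D3. The 17 sarcomere genes, which build the contractile apparatus, had 6 D2-only, 5 D1-only and 8 shared regions. Their shares were 31.6% D2-only and 26.3% D1-only, against 37.9% and 13.6% over all genes. Among the sarcomere genes, Tpm1, a tropomyosin, had 2 D2-only regions, one over its promoter at 6.41. Nebl and Ttn, both long genes, had 3 and 2 of the 5 D1-only regions.

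Neural ectoderm genes had 59 D2-only regions, 1 D1-only and 17 shared, so that 76.6% were D2-only, against 37.9% over all genes. At least 1 D2-only region occurred at 17 of 18 genes, against 35% of all genes. Of the 59, 47 were called again at D3 and 14 at D0, against 65.4% and 27.6% of all D2-only regions. At D3 and at neither 2i nor D0, 32 were called, against 33.7% of all D2-only regions. Sox1, an early neural SRY-box factor, and Pax2, a paired box factor of the midbrain border and kidney, had 7 D2-only regions each, the strongest at −log10 q of 15.6 and 13.5. Pax7 and Pax6 tied with them at 7 each, named here after their values were seen. The Pax2 region of 13.5 was 1351 bp wide, lay over a promoter and was called at D2 and in each list from D3 to D8, and at neither 2i nor D0. Gbx2, a homeobox factor of the midbrain and hindbrain border, had the strongest single region of the group, 4.98 kb from the gene at a −log10 q of 28.6 and a fold enrichment of 7.69, called at D2 to D5 (chosen after its values were seen). The D1-only region was at Sox1, 1.11 kb inside the gene at 1.67, between D2-only regions of the same gene and within 500 bp of 1 of them. The promoters of Nes, Pax2, Pax6, Pax7 and Zic1 lay under D2-only regions. Zic1 had 3 assigned shared regions and no assigned D2-only region, so the D2-only region over its window was counted at another gene.

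Naive pluripotency genes were the one group of the 15 with more D1-only than D2-only regions when all peaks were used: 20 D2-only, 23 D1-only and 25 shared. At a −log10 q of at least 5 the excess was gone, with 15 D2-only, 15 D1-only and 17 shared regions. D1-only regions occurred at 15 of the 18 genes, against 13.5% of all genes, and D2-only regions at 12, against 35% of all genes. Of the 23 D1-only regions, 19 were called at D0, 17 at the 2i stage and 9 at D3. Over all D1-only regions these shares were 50.8%, 46.8% and 10.7%. Zfp42, the zinc finger gene also known as Rex1 and a marker of naive cells, had 1 D2-only region at a −log10 q of 2.22 and 2 D1-only regions. The D1-only region of 679 bp 14.0 kb from the gene (chr8:43320717-43321395) stood at 30.6 with a fold enrichment of 11.97, and the other, 26.6 kb away, at 1.91, called at D1, D4 and D7. The region at 30.6 had the highest −log10 q of all D1-only regions, and it was called at 2i, D0 and D1 and in no later list. Esrrb, an orphan nuclear receptor of naive cells, had 3 D2-only regions at 8.86, 7.12 and 4.34 and 5 D1-only regions at 24.3, 11.0, 4.68, 3.35 and 2.00, all 8 inside the gene. The D2-only region at 7.12 lay over an annotated Esrrb promoter and was called from D2 to D10 and at neither 2i nor D0, while the D1-only region at 24.3 was called at 2i, D0, D1 and D3. Nanog, the homeobox factor of naive cells, had a D2-only region 1.42 kb beyond the gene at 13.8, called from D2 to D8, and a D1-only region inside the gene at 6.71, called at D0 and D1. Dppa3, also known as Stella, had 2 D2-only regions at 8.37 and 4.63 and a D1-only region at 5.79 that was also called at 2i, D0 and D8. Klf4, a Krüppel-like factor, had 2 D2-only regions at 9.06 and 2.46 and no D1-only region. Fgf4, the ligand that drives exit from the naive state, had 2 D2-only regions, the stronger over its promoter at 12.7.

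Core pluripotency genes, which stay expressed beyond the naive state, had 21 D2-only, 6 D1-only and 28 shared regions. The D2-only share of 38.2% and the D1-only share of 10.9% were near the 37.9% and 13.6% over all genes. Pou5f1, the gene of OCT4, had 1 D2-only region at a −log10 q of 1.45 and 1 shared region. Sox2 had 4 D2-only regions at 11.5, 6.86, 3.88 and 3.00, all called at D3, and no D1-only region. Sall4, a zinc finger factor, had 4 D2-only regions, 3 of them called at D2 and D3 alone. Dppa2, a chromatin factor of early embryos, had 3 D1-only regions at 5.85, 2.97 and 1.99, each called at 2i, D0 and D1 and in no later list. Jarid2, a Polycomb partner, had 3 D2-only regions and 1 D1-only region at 12.5, called at 2i, D0 and D1.

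Formative and primed pluripotency genes had 25 D2-only, 6 D1-only and 30 shared regions, 41.0% D2-only, near the 37.9% over all genes. Of the 25, 13 were called at D3 and at neither 2i nor D0, against 33.7% of all D2-only regions. Pou3f1, the POU factor OCT6 of the epiblast, had 4 D2-only regions at −log10 q of 11.3, 7.09, 6.22 and 2.87, and 3 of them were called at D2 and D3 and in no other list. Otx2, the homeobox factor that drives the formative state, had 3 D2-only regions at 4.75, 2.76 and 1.77, all called at D3, and 4 shared regions. Fgf5, an epiblast ligand, had 2 D2-only regions at 3.08 and 1.72 and 3 shared regions. Dnmt3b, a de novo DNA methyltransferase, had a D2-only region 6.20 kb from the gene at 10.3 that was called at D2 and D3 alone. Dnmt3a had a D2-only region inside the gene at 2.31 and a D1-only region inside the gene at 6.93 that was called at 2i, D0 and D1. Etv5, an ETS factor downstream of FGF, had 2 D2-only regions called at D2 and D3 alone and 2 D1-only regions also called at the 2i stage and D3.

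**Figure D5:**
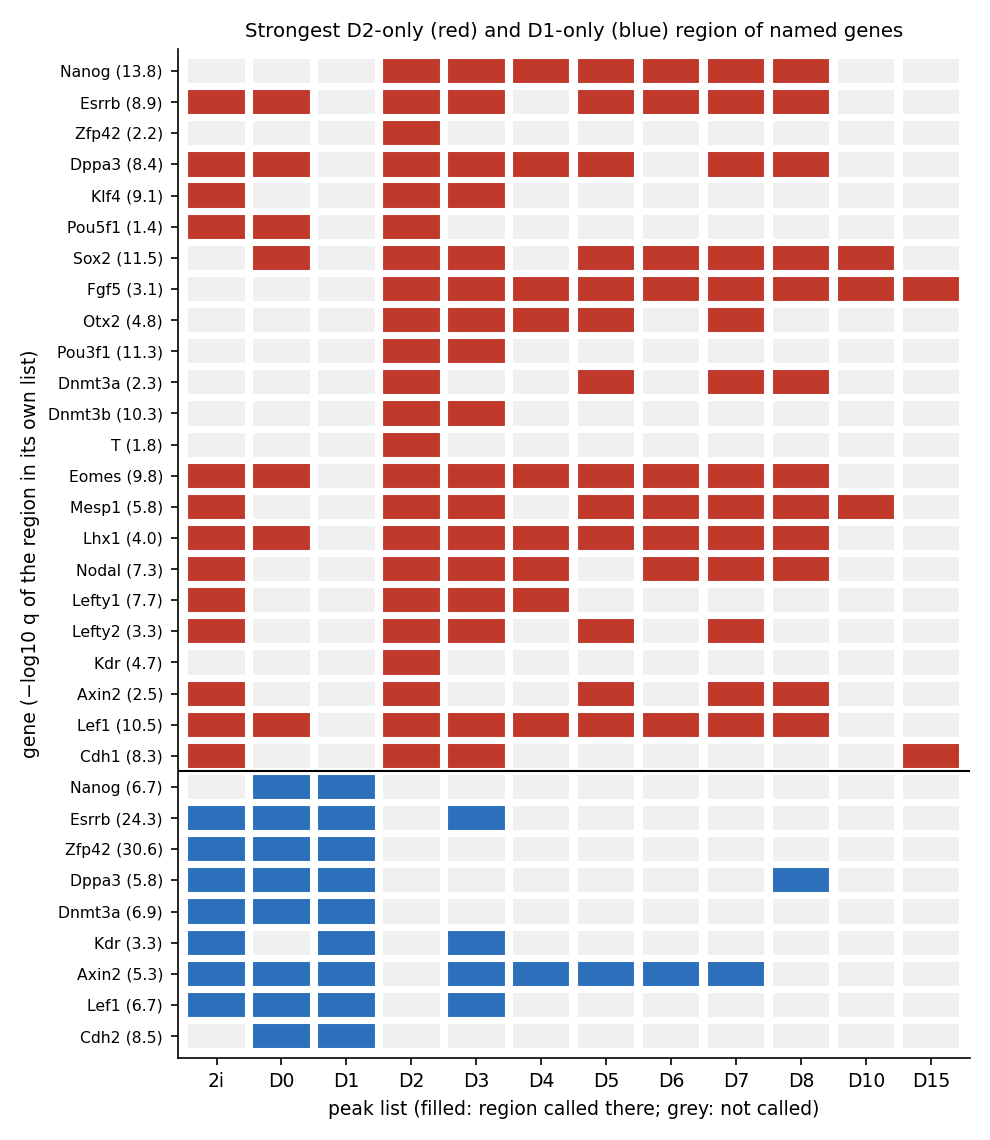
Strongest D2-only region (red, upper rows) and D1-only region (blue, lower rows) of each named gene that had one, with the 12 peak lists in order of time across and a filled cell where the list called the region. The number after each gene is the −log10 q in the region's own list, 13.8 for the D2-only and 6.7 for the D1-only region of Nanog, and Mixl1, Gata6 and Gapdh have no row because they had shared regions alone.

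Of the regions at Wnt pathway genes, 51.5% were D2-only, against 37.9% over all genes: 35 D2-only, 6 D1-only and 27 shared regions. Wnt5a, a ligand of the non-canonical branch, had 5 D2-only regions at −log10 q of at most 3.53, all called at D3. Lef1, a nuclear partner of beta-catenin, had 3 D2-only regions at 10.5, 4.60 and 2.84 and 1 D1-only region at 6.67. That D1-only region lies within 500 bp of the D2-only region at 10.5. Axin2, a feedback inhibitor and target of the pathway, had 3 D2-only regions at 2.49, 2.21 and 1.44 and 2 D1-only regions at 5.35 and 4.58. Of these, the D1-only region at 5.35 lies within 500 bp of the D2-only region at 2.21. Rspo3, an R-spondin that amplifies Wnt signals, had 1 D1-only region at 11.98, called at D0 and D1. The promoters of Rnf43, Wnt3 and Wnt3a lay under D2-only regions.

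Genes of the Nodal, BMP and TGF-beta pathway had 41 D2-only, 3 D1-only and 32 shared regions. The D2-only share was 53.9%, against 37.9% over all genes. A D2-only region occurred at 20 of 27 genes, against 35% of all genes. Among the ligands and their antagonists, Nodal had 3 D2-only regions at −log10 q of 7.35, 3.49 and 2.55, and Lefty1 and Lefty2, feedback antagonists of Nodal, had 2 and 1, all 3 of which were also called at the 2i stage and at D3 and not at D0. Among the intracellular inhibitors, Smad6, which blocks BMP signals, had 5 D2-only regions, each called at D2, D3 and from D5 to D8 and none at 2i or D0. Among the BMP targets, Id3, an inhibitor of bHLH factors, had 4 D2-only regions at 14.4, 12.2, 7.78 and 6.95, the last over its promoter, and none was called at 2i or D0. The 3 D1-only regions were at Msx2, a homeobox target of BMP, at Acvr1b, a receptor of Nodal and activin, and at Pcsk6, a proprotein convertase.

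FGF and ERK pathway genes had 31 D2-only regions (44.3% of their regions), 5 D1-only and 34 shared regions. The receptors Fgfr2 and Fgfr1 had 4 D2-only regions each, the strongest at −log10 q of 9.97 and 7.15, and no D1-only region. Spred2, an inhibitor of the pathway, had 1 of each, at 1.76 for D2-only and 3.35 for D1-only. DNA methylation genes had 9 D2-only regions (34.6%, below the 37.9% over all genes), 4 D1-only and 13 shared regions. Tet1, a methylcytosine oxidase, had 3 D2-only regions, one over its promoter at 16.3 and called in each list from D2 to D15, and 2 D1-only regions, one of which lies within 500 bp of that promoter region and was also called at D3. Tet3, another such oxidase, had 2 D2-only regions at 20.2 and 3.82.

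Adhesion and EMT genes had 21 D2-only, 6 D1-only and 18 shared regions, 46.7% D2-only, against 37.9% over all genes. Called again at D3 were 19 of the 21 D2-only regions, against 65.4% of all D2-only regions. Krt18, an epithelial keratin, had 3 D2-only regions at −log10 q of 15.7, 6.14 and 6.02, the last over its promoter. Cdh1, the gene of E-cadherin, had 3 D2-only regions at 8.27, 3.75 and 1.45, all called at D3, while Cdh2, the gene of N-cadherin, had 2 D1-only regions at 8.49 and 3.35 and none at D2 alone. Zeb2, a repressor of E-cadherin, had 3 D2-only regions at 8.30, 4.85 and 1.498. Itgb1, an integrin chain, had 2 D1-only regions called at D1 alone. The promoters of Cldn6, Cldn7, Crb3, Itga5 and Krt18, genes of junctions, polarity, integrins and keratins, lay under D2-only regions. Endoderm genes had 16 D2-only (48.5%), 5 D1-only (15.15%) and 12 shared regions. Prdm1, a zinc finger repressor, had 3 D2-only regions, and Hnf4a, a nuclear receptor of liver and visceral endoderm, had 1 D2-only and 2 D1-only. Housekeeping genes had 4 D2-only (23.5%), 1 D1-only (5.88%) and 12 shared regions. Over all genes these shares were 37.9% D2-only and 13.6% D1-only. Gapdh, a glycolytic enzyme, had 1 shared region and no other.

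With equal numbers of top peaks, streak and mesendoderm genes had 20 D2-only, 3 D1-only and 5 shared regions, neural ectoderm genes 35, 1 and 17, and naive pluripotency genes 14, 23 and 25, against 7652, 5400 and 15099 over all genes. The sarcomere group turned round, with 1 D2-only and 5 D1-only regions. These gene groups, the gene lists and the members were chosen with earlier results of these data known, so the counts describe the groups and are no independent evidence.

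The label of the cells was checked against marker lists, where a region shows accessibility and not expression. The 8 embryonic stem cell markers had 12 D2-only, 9 D1-only and 12 shared regions, and the 6 epiblast-like cell markers 12, 0 and 11. The 7 mesoderm markers had 6 D2-only, 1 D1-only and 4 shared regions, and the 6 cardiomyocyte markers 5, 2 and 0, so that no region of a cardiomyocyte marker was called on both days. Markers of other cells that a culture could hold also carried regions: 9 D2-only, 2 D1-only and 4 shared for trophectoderm, 5, 3 and 7 for extraembryonic endoderm, 21, 1 and 9 for neural ectoderm, 5, 4 and 7 for blood, and 3, 1 and 4 for fibroblasts. The part that such cells have in the D2-only regions was not tested. Over all protein-coding genes, 37.9% of assigned regions were D2-only and 13.6% D1-only. The D2-only share was near 37.9% for embryonic stem cell (36.4%, 12 of 33 regions) and fibroblast markers (37.5%, 3 of 8). For extraembryonic endoderm (33.3%, 5 of 15) and blood markers (31.25%, 5 of 16) it was lower. It was above 37.9% for epiblast-like cell (52.2%), mesoderm (54.55%, 6 of 11), cardiomyocyte (71.4%, 5 of 7), trophectoderm (60.0%, 9 of 15) and neural ectoderm markers (67.7%). All these shares rest on few regions.

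The strongest regions of a single day were few. At a −log10 q of at least 20, 266 regions were D2-only and 33 D1-only, with median widths of 663 bp and 635 bp. Of the 266, 265 were called at D3, 170 at D0 and 176 at the 2i stage, and 97 lay within 1 kb of a gene end. Of the 33, 32 were called at D0, 32 at the 2i stage and 10 at D3, and 1 lay within 1 kb of a gene end. Nearly all strong D1-only regions were thus called in the earliest lists, and 30.3% were also called at D3, against 10.7% of all D1-only regions. Of the strong D2-only regions, 63.9% were called at D0 as well as D2, against 27.6% of all D2-only regions. The D2-only regions with the highest −log10 q among those assigned to a gene were at Myl12b (347), a myosin light chain, in Chl1 (331), an adhesion molecule of neurons, and at Rimbp3 (288), followed by Chrm3 (106), a muscarinic receptor, and Slc25a35 (57.4). Those of Myl12b, Chl1, Rimbp3 and Chrm3 were only 230 to 246 bp wide, against the median of 663 bp, and none was called at 2i, D0, D1 or D4. The leading D1-only regions after that of Zfp42 were at Gm14625 (28.8) and in Dph6 (27.7), an enzyme of diphthamide synthesis, at Olfr339 (26.9), an olfactory receptor, and at Aspm (26.2), a spindle protein. The regions of Zfp42, Dph6, Olfr339 and Aspm were called at 2i, D0 and D1 and in no later list, and that of Gm14625 also at D4 and D15.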

How the data were processed

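Per the labels' protocols, nuclei were released with detergent and tagged with a Nextera kit. The submitters' processing notes name cutadapt 2.10, Bowtie2 2.3.2, SAMtools 1.5, Picard, MACS2 2.1.1 and the mm10 build. Not given in the sources used here are their settings, any shift for the transposase offset, the way the 2 replicates were combined and the depth, so no precision from depth can be stated. The authors deposited 1 narrowPeak list per time point, with interval positions and, per peak, a summit offset, a score, a fold enrichment (a linear ratio), a −log10 p-value and a −log10 q-value. These deposited values were used to rank, filter or describe peaks within a list. Signal tracks were not used here.

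Distinct intervals of D2 and D1 were merged with bedtools 2.31.1, and regions were sorted into classes (tested on simulated data). A region was located by its summit with the highest −log10 q. Gene bounds came from a RefSeq table of GRCm38.p6 with 21631 protein-coding genes, and all 260 listed genes matched by symbol. Promoter windows existed for 184 of the 260. Top peaks were ranked by p-value. Shares have Wilson 95% intervals. The members, 15 gene groups and 9 marker lists were chosen with earlier results of these data known. Genes were named by a rule: per group up to 2 genes with most D2-only and up to 2 with most D1-only regions (ties by −log10 q), the 5 genes genome-wide with most of each, the genes of the 10 strongest regions of each class, and 27 fixed genes. Fewer are printed, and 1 gene of the rule is not reported here. Genes named for a promoter and the promoters with printed sequences were chosen after their classes were seen. Alternatives were equal numbers of top peaks, a −log10 q of at least 5, other overlap rules, other distances and region centres.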

Additional observations from a re-analysis of the deposited data

How the results depend on the processing

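With equal numbers of top peaks, D2-only minus D1-only regions was -1166 (8852 D2-only regions). This difference largely follows from how many intervals each list keeps after the cut. At sarcomere genes it was -4, and the cause there was not tested. Over all 15 groups, the differences kept their sign or came to 0 in 59 of 60 group settings, and this sarcomere setting was the 1 that reversed. A −log10 q of at least 5 left 9074 D2-only and 3707 D1-only regions and a D2-only median width of 546 bp. Within 1 kb of a gene end were 21.6% of D2-only and 3.16% of D1-only regions with equal numbers, and 31.0% and 3.53% at the stricter q. Within 500 bp these shares were 13.3% and 1.44%, and within 5 kb 33.6% and 8.60%. Over 50 kb from genes were 13.6% of D2-only and 46.1% of D1-only regions with equal numbers, and 12.3% and 46.1% at the stricter q. With both rules set in all lists, D3 called 68.2% (equal numbers) and 80.3% (stricter q) of D2-only regions and D0 called 23.3% and 28.6%. D0 called 42.6% and 56.8% of D1-only regions, and D3 called 16.9% of them at the stricter q. A −log10 q of at least 10 gave 1909 strong D2-only and 525 strong D1-only regions.

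No paired analysis was possible because both replicates of a day share 1 list. No replicate was left out for the same reason. Depth is unknown, the lists have a q threshold of 0.05 each, and a call near it on 1 day and just short of it on the other counts as a difference. Unmeasured differences between the libraries of the 2 days and the day itself cannot be told apart.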

Other observations

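Gene families that were chosen after the values were seen differed in the make-up of their regions, beside 37.9% D2-only and 13.6% D1-only over all protein-coding genes. Hox cluster genes, which pattern the body axis, had 45 D2-only, 2 D1-only and 10 shared regions over 39 genes. Paired box (Pax) genes had 38, 0 and 8 over 9 genes, LIM homeobox (Lhx) genes 20, 1 and 7 over 8, and forkhead (Fox) genes 67, 11 and 51 over 44. Olfactory receptor genes, which act in olfactory neurons and lie in clusters, had 58 D2-only, 176 D1-only and 109 shared regions over 1110 genes, so that 51.3% were D1-only. Vomeronasal receptor genes had 25, 84 and 55 over 355 genes, and 51.2% were D1-only. KLF genes, zinc finger factors that include pluripotency regulators, had 6 D2-only, 10 D1-only and 30 shared regions over 17 genes.

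Of 1005 miRNA hairpins in the RefSeq table, 70 (6.97%) had a D2-only region within 1 kb, 7 (0.697%) a D1-only region and 104 a shared one. Mir200c (chr6:124718322-124718390, minus strand) and Mir141 (chr6:124717914-124717985, minus strand), members of a family known from epithelial cells, had a D2-only region within 1 kb and no shared one. Mir200a, Mir200b and Mir429, of the same family, had no D2-only, D1-only or shared region within 1 kb. The mature sequences of Mir200c and Mir141 are shown with the seed (bases 2 to 8) in capitals because the 2 seeds differ.
mmu-miR-200c-3p: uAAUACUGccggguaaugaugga
mmu-miR-141-3p: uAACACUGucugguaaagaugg

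Among the 266 D2-only regions with a −log10 q of at least 20, 15 were under 300 bp wide, with fold enrichments of 7.47 to 33.8, and 14 of the 15 were called at D3 and 3 at D0. They include those at Myl12b (246 bp), in Chl1 (230 bp), at Rimbp3 (243 bp) and at Chrm3 (245 bp), which were called in most lists from D2 on and at none of 2i, D0, D1 and D4. None of the 33 strong D1-only regions was that narrow. What sets such narrow, highly enriched regions was not tested.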
